A study of Mus musculus with 6 samples.

Results

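The endoplasmic reticulum (ER) genes described here encode the proteins that carry new secretory and membrane proteins into the ER, fold them there, ship them to the Golgi or return failed products to the cytosol. They were chosen by symbol alone: chaperones and their J-domain partners, protein disulfide isomerases and oxidases, signal recognition particle subunits, translocon and signal peptidase subunits, coat protein complex II (COPII) and related transport genes, ER-associated degradation genes and the stress sensors Atf6, Atf6b and Ern1. Of 17372 genes named by a probe set with a single symbol, 51 matched, and each was read from 1 probe set, the one with the highest mean. Sec61b and Mef2c are not analysed here.

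In this pathway the signal recognition particle brings a ribosome to the Sec61 channel, the signal peptide is cut off inside, and Hspa5 (BiP) and the disulfide isomerases help the chain fold. Misfolded chains are pulled back out for degradation, and folded ones leave in COPII vesicles. The machinery is best known in the B lineage for its expansion in plasma cells, while precursor B cells use it to assemble the pre-B cell receptor.

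Expression was measured on Affymetrix mouse genome arrays in sorted bone marrow pre-B cells, gated as B220+ IgM- CD43-, from 9-month-old mice. There were 3 arrays labelled control and 3 labelled Vav-Cre Mef2cfl/fl, called Mef2c-deficient below. Vav-Cre recombines floxed alleles throughout blood-forming cells, so the Mef2c-deficient arrays are not a deletion limited to B cells. By the study's methods, control mice were of the same age and carried floxed Mef2c without Cre, or Vav-Cre with 1 floxed and 1 normal allele. Which of these each control array came from, and whether animals were pooled, is not given in the sources used here, so p-values measure only the spread between these arrays.

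Levels below are log2 of the deposited intensity, and a difference is Mef2c-deficient minus control on that scale. The deposited values reached 21.03 on the log2 scale, above what a 16-bit scanner can give, and 14.58 as a natural log. If the submitters raised e rather than 2 to their normalized values, every log2 difference would be 0.69 times the value printed, with the same sign and p. Levels are set side by side only between arrays for the same gene, since probe sets differ in brightness.

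Controls correlated with each other at r of 0.957 to 0.986 over the 11271 genes tested, and Mef2c-deficient arrays at 0.868 to 0.943. Pre-B markers were present, with 10 of 12 measured and all 10 bright enough to be tested. Their summed level, as log2, was 20.90 to 21.29 in controls and 20.37 to 21.08 in Mef2c-deficient arrays. Means were lower in Mef2c-deficient arrays for 9 of these 10, with a median difference of -0.77, and their medians relative to control means were -0.19, -0.81 and -1.10 in Mef2c-deficient replicates 1, 2 and 3. Mef2c-deficient replicate 3 stood apart with the highest summed levels of plasmacytoid dendritic cell markers (13 of 18 measured, 20.44 against 19.08 and 19.09 in the other Mef2c-deficient arrays and 18.47 to 19.18 in controls) and of neutrophil markers (10 of 10 measured, 20.30 against 15.49 and 17.15, and 15.06 to 17.45 in controls). Means were higher in Mef2c-deficient arrays for 11 of 12 tested plasmacytoid dendritic cell markers and 8 of 8 tested neutrophil markers. Relative to control means, medians of the first list were 0.38, 0.95 and 3.81 in Mef2c-deficient replicates 1, 2 and 3. For neutrophil markers they were 0.17, -1.40 and 4.69, so that rise was not shared by replicate 2. Mef2c-deficient replicate 3 was also highest for monocyte and macrophage markers (9 of 9 measured, summed level 18.37 against 15.43 to 16.29 on the other arrays). Summed levels of the T cell (4 of 8 measured), NK cell (4 of 5) and erythroid (3 of 5) lists were highest there too. Only 3, 3 and 1 of these were bright enough to be tested. By the median of the tested NK cell markers relative to control means, control replicate 3 was highest, at 0.89 against 0.65 in Mef2c-deficient replicate 3. The IgM+ B cell list (6 of 7 measured) had its highest summed level in Mef2c-deficient replicate 2, at 20.33. The other Mef2c-deficient arrays had 19.37 and 19.71, and controls 18.98 to 19.65. Means were higher in Mef2c-deficient arrays for 4 of its 6 tested markers and lower for 2.

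Across the whole module, levels in Mef2c-deficient pre-B cells were shifted by about as much as those of all genes tested. The 48 members above the low-signal filter had a median log2 difference of -0.39, against -0.36 over the 11271 genes tested, with a range from -1.41 for Srp72 to 1.84 for Pdia5, whose mean passed the filter only through its Mef2c-deficient arrays. Means were lower in Mef2c-deficient arrays for 32 members and higher for 16. With no filter the median was -0.44 over the 51 members and 0.073 over all 17372 genes. These arrays hold RNA of many cells, so fewer cells of a type and less RNA per cell cannot be told apart.

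No member passed limma's test at an adjusted p of 0.05 in either direction. Over all genes 0.0177% passed as lower and 0% as higher. At an unadjusted p under 0.05, limma gave 9 members with lower values (18.8%, against 20.9% of all genes) and 1 with higher values (2.08%, against 5.32%). With the replicate number as a block these counts were 7 and 3, against 23.1% and 6.72% of all genes. Groups did not overlap for 13 members lower in Mef2c-deficient arrays, against 27.1% of all genes, and for 3 higher, against 10.6%. The shares of members were thus near or below the background in every one of these counts.

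The count of 9 moved with single arrays, as the share of all genes did. Without control replicate 1 or without control replicate 3 it was 3, against 12.4% and 12.6% of all genes. Without Mef2c-deficient replicate 3 it was 15, against 23.7% of all genes, with a median of -0.53 against -0.32 over all genes. In both groups the members were highest most often in replicate 3: among controls for 33 of 48 (68.8%, against 47.6% of all genes), and among Mef2c-deficient arrays for 28 (58.3%, against 37.3%). Among controls, replicate 3 also had the highest summed plasmacytoid dendritic cell and neutrophil markers, at 19.18 and 17.45. Whether the other cell types marked in replicate 3 of either group had a part in this was not tested.

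**Figure D1:**
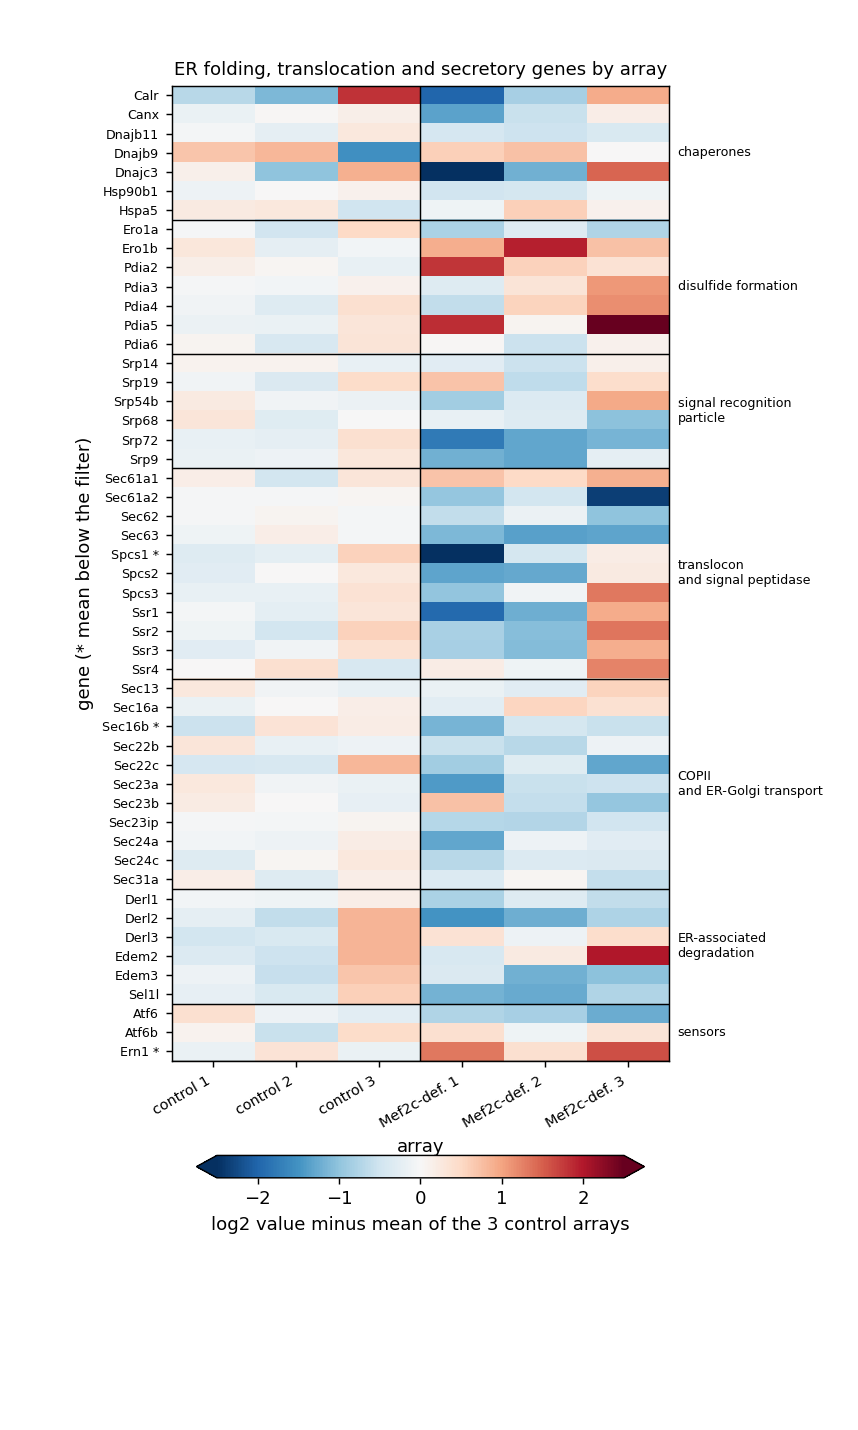
Each row is 1 of the 51 members, grouped by role (asterisks mark the 3 below the filter), and each column 1 of the 6 arrays. Colour gives the log2 level minus that gene's control mean, with the end colours shared by values past the scale, and the Mef2c-deficient arrays show many lower values in replicates 1 and 2 and more higher values in replicate 3.

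By role, the genes of disulfide formation had mostly higher means in Mef2c-deficient arrays, and those of the other larger groups mostly lower ones. Medians relative to that of all genes were 0.72 for disulfide formation, -0.36 for ER-associated degradation, -0.11 for both the translocon with signal peptidase and COPII, -0.081 for chaperones, and -0.015 for the signal recognition particle. These medians are a description of small lists with no test.

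**Figure D2:**
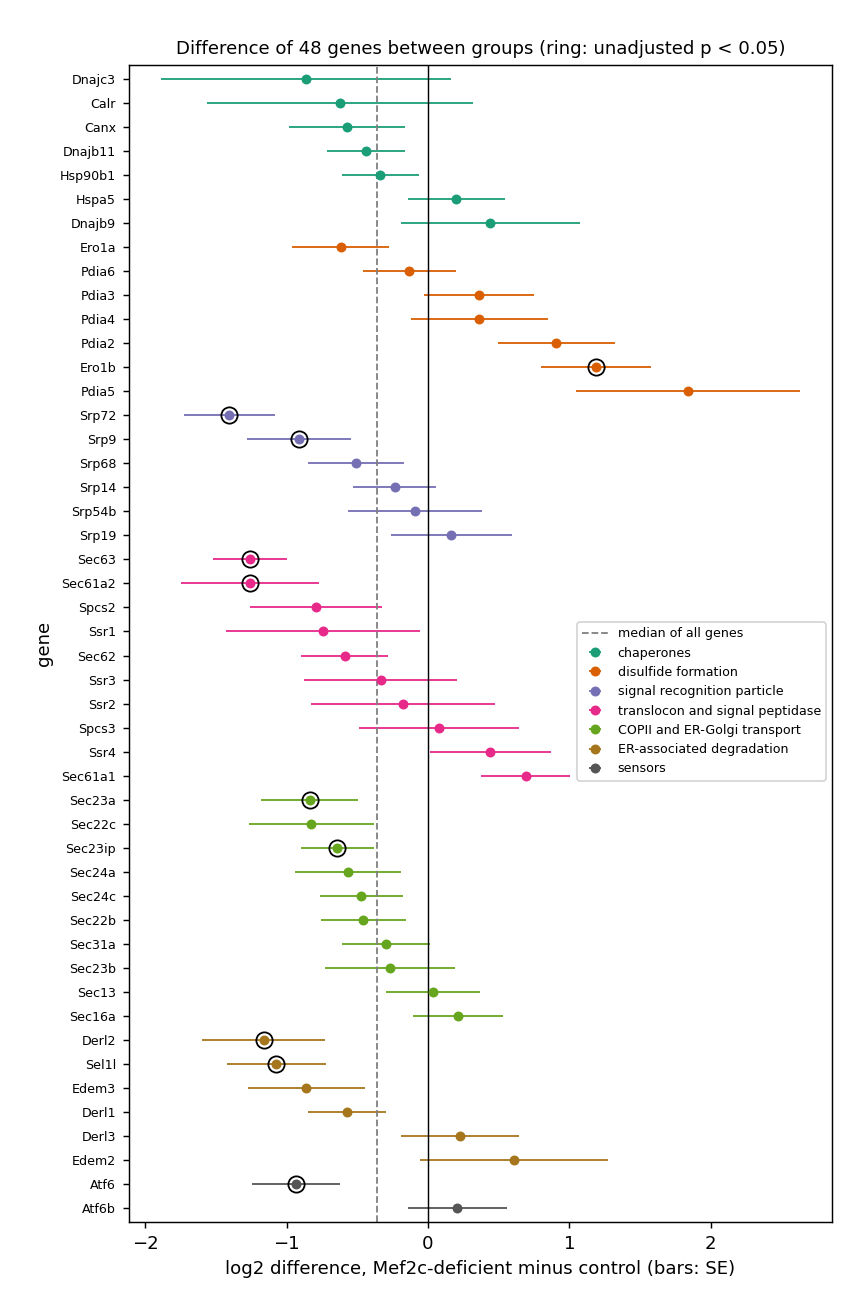
Points are log2 differences, Mef2c-deficient minus control, for the 48 members tested, with bars for limma's standard error, coloured by role and ringed at an unadjusted p under 0.05. A dashed line marks the median of all genes, -0.36, and the ringed points run from -1.41 for Srp72 to 1.19 for Ero1b.

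No chaperone differed past the test, adjusted or not. Hspa5 (BiP), the central ER Hsp70, had levels of 15.98, 16.01 and 15.26 in controls and 15.64, 16.35 and 15.85 in Mef2c-deficient arrays. The groups overlapped, with a difference of 0.20 (SE 0.34, limma adjusted p = 0.673). Hsp90b1 (GRP94), the ER Hsp90, read 16.42, 16.56 and 16.66 against 16.08, 16.12 and 16.44. Only Mef2c-deficient replicate 3 reached into the control range, and the difference of -0.34 (SE 0.27, limma adjusted p = 0.397) had the opposite sign when arrays were scaled by cyclic loess or centred on the genes tested (0.026 and 0.13).

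Calr and Canx are the lectin chaperones that hold glycoproteins during folding. Calr varied widely within both groups, Canx only among Mef2c-deficient arrays. Calr read 12.79, 12.36 and 15.27 in controls and 11.49, 12.65 and 14.41 in Mef2c-deficient arrays, so the array numbered 3 was the highest in both groups (difference -0.62, SE 0.94, limma adjusted p = 0.634). Canx read 14.25, 14.45 and 14.58 against 13.10, 13.87 and 14.60 (difference -0.57, SE 0.41, limma adjusted p = 0.352). Mef2c-deficient replicate 3 lay above every control for Canx and replicates 1 and 2 below. Without that array the Canx difference was -0.95.

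The J-domain cochaperones, which stimulate BiP's ATPase, did not share a pattern. Dnajb11 (ERdj3) was lower in every Mef2c-deficient array than in any control, at 16.22, 16.12 and 16.26 against 16.59, 16.42 and 16.90. Dnajb9 (ERdj4) read 15.45, 15.58 and 13.21 in controls and 15.34, 15.47 and 14.75 in Mef2c-deficient arrays. Its lowest value in both groups was in replicate 3, and its difference of 0.44 (SE 0.63, limma adjusted p = 0.618) became -0.32 without control replicate 3 and -0.11 without both arrays numbered 3. Dnajc3 (p58IPK) ranged from 6.05 to 10.33 within the Mef2c-deficient group alone.

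Many ER chaperone promoters carry the ER stress response element, in which CCAAT is followed after 9 bases by CCACG and through which NF-Y and ATF6 are known to act. RefSeq windows of 250 bases before to 50 after the gene start (GRCm38.p6) were listed for 44 of the 51 members. Derl1, Ssr2, Spcs3, Srp19, Srp68, Sec61a1 and Atf6 had none. Searched on both strands, the element lay in 8 of the 44 genes (18.2%), or 16.7% of their 48 windows, against 39 of 32851 windows of all genes (0.119%). CCAAT, with or without the rest of the element, was in 56.2% of member windows and 37.4% of all windows. CCACG, counted the same way, was in 72.9% and 32.8%. The matches are shown because they mark which members carry the element, each written from CCAAT to CCACG with those bases in capitals.
Hspa5, chr2:34772025-34772043: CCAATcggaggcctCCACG
Hsp90b1 distal, chr10:86705638-86705656: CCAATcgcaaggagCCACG
Hsp90b1 proximal, chr10:86705533-86705551: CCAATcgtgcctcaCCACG
Calr, chr8:84847075-84847093: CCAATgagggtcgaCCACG
Canx, chr11:50325800-50325818: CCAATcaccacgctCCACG
Dnajc3, chr14:118937827-118937845: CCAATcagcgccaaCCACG
Ero1b, chr13:12565682-12565700: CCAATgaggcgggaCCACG
Pdia6, chr12:17266491-17266509: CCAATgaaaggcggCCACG
Derl3, chr10:75893242-75893260: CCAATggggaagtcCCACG

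The matches in Calr, Derl3 and Ero1b and the proximal one in Hsp90b1 ran against the direction of the gene. The 250 bases before the gene start are given for the ER Hsp70 and Hsp90 genes and for Ero1b, the member with the element and the largest difference, in the direction of the gene with CCAAT and CCACG, or their complements, in capitals.
Hspa5, chr2:34771840-34772089, plus strand: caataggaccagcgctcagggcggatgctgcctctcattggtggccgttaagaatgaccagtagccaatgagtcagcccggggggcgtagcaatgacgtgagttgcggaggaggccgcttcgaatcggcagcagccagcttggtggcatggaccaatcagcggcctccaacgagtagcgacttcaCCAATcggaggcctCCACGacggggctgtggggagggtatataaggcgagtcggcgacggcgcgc
Hsp90b1, chr10:86705445-86705694, minus strand: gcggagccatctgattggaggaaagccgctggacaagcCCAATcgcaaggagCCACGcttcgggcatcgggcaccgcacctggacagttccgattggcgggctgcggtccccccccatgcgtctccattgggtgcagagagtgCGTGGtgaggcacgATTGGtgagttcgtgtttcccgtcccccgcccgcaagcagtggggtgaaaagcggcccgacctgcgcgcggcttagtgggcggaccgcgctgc
Ero1b, chr13:12565633-12565882, plus strand: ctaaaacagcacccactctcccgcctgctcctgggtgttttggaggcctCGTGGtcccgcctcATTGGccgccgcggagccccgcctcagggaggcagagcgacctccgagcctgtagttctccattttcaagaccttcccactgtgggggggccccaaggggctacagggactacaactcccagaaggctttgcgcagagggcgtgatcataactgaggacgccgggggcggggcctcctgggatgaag

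The 8 tested members with the element did not move in one direction. Their log2 differences ran from -0.86 to 1.19 with a median of -0.23, and 5 were below 0. The 33 tested members whose window held no match had a median of -0.46, with 23 below 0. A match is only these letters in this window, and this split was not tested.

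**Figure D3:**
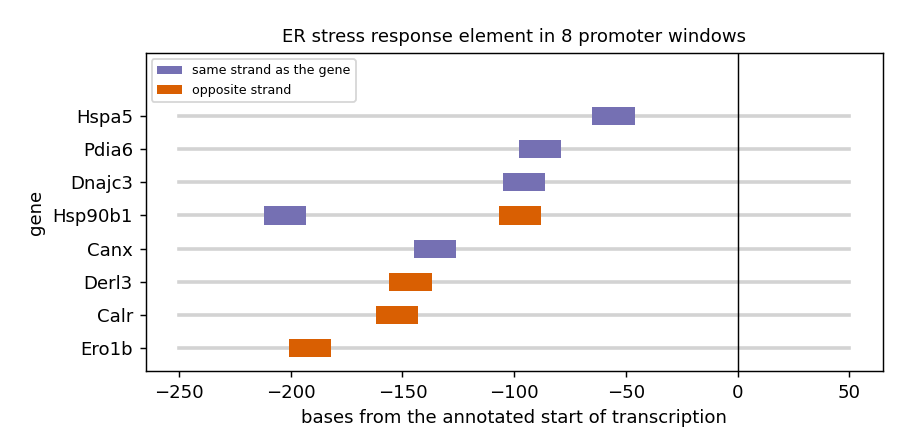
Positions of the ER stress response element in the windows of the 8 member genes that hold it, as bases from the gene start on the horizontal axis, 1 gene a line, coloured by whether the match runs with or against the gene. The 9 matches lie between 212 and 47 bases before the start, and Hsp90b1 has 2.

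Among the genes of disulfide formation, 5 of 7 had higher means in Mef2c-deficient arrays. Ero1b, an oxidase that recharges protein disulfide isomerase, was the one member with higher values at an unadjusted p under 0.05. It read 13.02, 12.50 and 12.66 in controls and 13.63, 14.66 and 13.46 in Mef2c-deficient arrays, with no overlap and a difference of 1.19 (SE 0.39, limma adjusted p = 0.136). Its paralog Ero1a had the opposite sign, at 11.32, 10.87 and 11.85 against 10.56, 11.02 and 10.60. The Ero1a groups overlapped and the difference was -0.62 (limma adjusted p = 0.262).

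Several disulfide isomerases were highest in Mef2c-deficient replicate 3. Pdia5 read 6.86, 6.83 and 7.30 in controls and 8.83, 7.07 and 10.61 in Mef2c-deficient arrays, a difference of 1.84 (SE 0.79, limma adjusted p = 0.193). Its control mean was below the filter at 7.26, so it was tested only because of its Mef2c-deficient values, and the difference was 0.96 without replicate 3. Pdia3 (ERp57), the isomerase that works with Calr and Canx, read 15.40, 15.36 and 15.53 against 15.11, 15.75 and 16.51. Pdia4 (ERp72) read 13.42, 13.19 and 13.91 against 12.88, 14.05 and 14.67. In both, replicate 3 was the highest array of the series, and the groups overlapped.

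The differences of Pdia3 and Pdia4 were both 0.36 (SE 0.39 and 0.48, limma adjusted p = 0.519 and 0.593). Without Mef2c-deficient replicate 3 they were -0.0011 and -0.037. Another probe set of Pdia4, under the filter, gave 1.04. Pdia2, low on every array, read 7.42, 7.31 and 7.08 in controls and 9.06, 7.85 and 7.64 in Mef2c-deficient arrays, without overlap (limma adjusted p = 0.206). Pdia6 had means of 8.28 and 8.15 (difference -0.13, SE 0.33, limma adjusted p = 0.772), which turned positive when arrays were centred on the probe sets above the filter (0.16) or on the genes tested (0.33), steps that add the same amount to every gene.

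The signal recognition particle held the member with the most negative difference. Srp72, which with Srp68 forms the particle's large heterodimer, read 13.05, 13.02 and 13.64 in controls and 11.47, 11.94 and 12.08 in Mef2c-deficient arrays. Every Mef2c-deficient array was well below every control, and the difference was -1.41 (SE 0.32, limma adjusted p = 0.0950), a 2.65-fold lower level as deposited and 1.96-fold if the base was e. Srp68 itself overlapped between groups, at 13.94, 13.34 and 13.62 against 13.45, 13.32 and 12.61.

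Srp9, a subunit of the heterodimer that pauses elongation, read 14.79, 14.82 and 15.23 in controls and 13.75, 13.64 and 14.72 in Mef2c-deficient arrays. The groups did not overlap, replicate 3 lay closest to the controls, and the difference was -0.91 (SE 0.37, limma adjusted p = 0.175), or -0.42 with cyclic loess. Its partner Srp14 had a smaller difference of -0.24. Srp19, an assembly subunit, and Srp54b, a copy of the subunit that binds the signal peptide, differed by 0.17 and -0.09. Srp54b has near-identical copies in the mouse genome, so its probe set may read more than 1 gene.

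At the translocon, Sec63 had the smallest p of the module. It is the membrane J protein that recruits BiP to the channel. It read 13.42, 13.70 and 13.49 in controls and 12.42, 12.18 and 12.23 in Mef2c-deficient arrays. The 2 groups were tight and well apart, and the difference was -1.26 (SE 0.26, limma adjusted p = 0.0934), or 2.40-fold lower as deposited and 1.83-fold if the base was e. Sec62, its partner, was also without overlap, at 15.34, 15.44 and 15.32 against 14.75, 15.22 and 14.36, with a difference of -0.59 (limma adjusted p = 0.247).

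The genes for the alpha subunit of the Sec61 pore differed in opposite directions. Sec61a1, the main isoform, read 9.43, 8.79 and 9.56 in controls and 9.97, 9.75 and 10.14 in Mef2c-deficient arrays, apart by a narrow margin (difference 0.69, SE 0.32, limma adjusted p = 0.206). Sec61a2, its paralog, read 10.42, 10.42 and 10.48 against 9.48, 9.98 and 8.08, also apart (difference -1.26, SE 0.49, limma adjusted p = 0.166, and -0.71 without Mef2c-deficient replicate 3). Replicate 3 was the lowest Mef2c-deficient array for Sec61a2 and the highest for Sec61a1.

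The translocon-associated protein complex (Ssr1 to Ssr4) and signal peptidase (Spcs genes) were split within the Mef2c-deficient group. Ssr1 read 14.50, 14.30 and 14.84 in controls and 12.61, 13.32 and 15.48 in Mef2c-deficient arrays. Ssr3 read 15.95, 16.16 and 16.62 against 15.42, 15.16 and 17.15. For both, replicates 1 and 2 were below every control and replicate 3 above every control.

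The same split was present for Ssr2, at 13.08, 12.71 and 13.75 against 12.36, 12.12 and 14.52. Ssr4 read 14.00, 14.40 and 13.60 against 14.18, 13.90 and 15.25, with only replicate 3 outside the control range. Spcs2, a signal peptidase subunit, read 13.46, 13.77 and 14.02 against 12.43, 12.46 and 13.98. There replicate 3 lay inside the control range and the other arrays below it.

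Spcs3, which the peptidase needs for activity, read 13.68, 13.67 and 14.22 in controls and 12.87, 13.76 and 15.17 in Mef2c-deficient arrays. Replicate 3 was again the highest array of the series. Of the 10 members tested here, 7 had their highest Mef2c-deficient value in replicate 3 (70%, against 37.3% of all genes). Among controls, 7 also had their highest value in control replicate 3 (70%, against 47.6% of all genes). The median of the group relative to each gene's control mean was -0.89, -0.76 and 0.89 in replicates 1, 2 and 3. Over all genes those medians were -0.37, -0.21 and -0.24. The summed plasmacytoid dendritic cell and neutrophil markers were highest in Mef2c-deficient replicate 3 and, among controls, in control replicate 3. Their part in this was not tested.

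**Figure D4:**
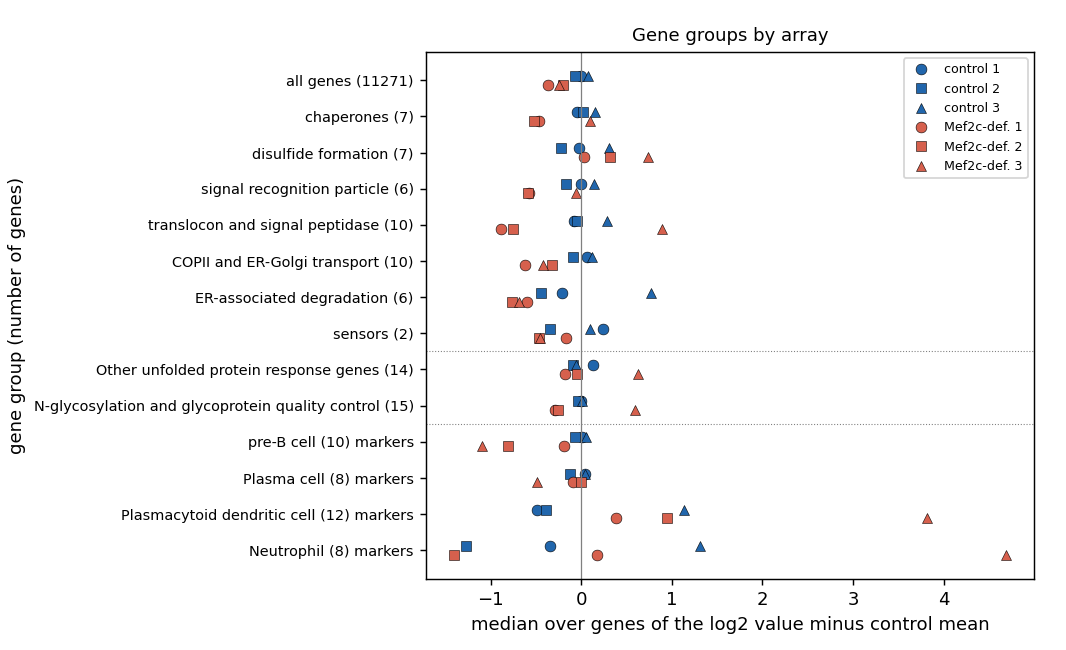
Points are medians over the genes of a list, for each of the 6 arrays, of the log2 level minus each gene's control mean, for all genes, the role groups, lists of the same pathway and cell type markers. The translocon and signal peptidase genes stand at -0.89 and -0.76 in Mef2c-deficient replicates 1 and 2 and at 0.89 in replicate 3.

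In vesicle transport, 8 of 10 tested members had lower means in Mef2c-deficient arrays, and 2 differed at an unadjusted p under 0.05, against 20.9% of all genes with lower values. Sec23a, an inner coat subunit that activates the GTPase Sar1, read 12.38, 12.03 and 11.95 in controls and 10.70, 11.56 and 11.60 in Mef2c-deficient arrays. The groups did not overlap (difference -0.84, SE 0.34, limma adjusted p = 0.179). Sec23ip, a Sec23-binding protein, was tight in both groups, at 12.84, 12.83 and 12.95 against 12.16, 12.13 and 12.40, again with no overlap (difference -0.64, SE 0.26, limma adjusted p = 0.176). With the replicate number as a block neither passed, at limma's unadjusted p of 0.0637 and 0.0688. Without Mef2c-deficient replicate 1 the Sec23a difference was -0.55, and with cyclic loess the differences were -0.32 for Sec23a and -0.089 for Sec23ip.

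The other coat genes differed less or varied more. Sec24c, which selects cargo, was the third without overlap, at 13.97, 14.35 and 14.57 against 13.60, 13.95 and 13.92. That made 30% of the 10 tested members apart as lower, against 27.1% of all genes. Sec23b, the paralog of Sec23a, spread from 12.26 to 13.96 in Mef2c-deficient arrays and overlapped the controls. The outer coat genes Sec13 and Sec31a had differences of 0.03 and -0.30, and Sec16a, which marks ER exit sites, 0.21. The vesicle SNARE gene Sec22b differed by -0.46 and Sec22c by -0.82, with limma adjusted p of 0.318 and 0.253.

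In ER-associated degradation, 2 of 6 tested members, Sel1l and Derl2, had lower values at an unadjusted p under 0.05 (33.3%, against 20.9% of all genes). Sel1l, the adaptor of the Hrd1 ubiquitin ligase, read 10.23, 10.05 and 11.02 in controls and 9.25, 9.17 and 9.67 in Mef2c-deficient arrays (difference -1.07, SE 0.35, limma adjusted p = 0.136). Derl2, a membrane rhomboid-like protein of the exit channel, read 9.62, 9.23 and 10.69 against 8.35, 8.63 and 9.07 (difference -1.16, SE 0.43, limma adjusted p = 0.158). Neither gene's groups overlapped, and 3 of the 6 members were apart as lower (50%, against 27.1% of all genes). Control replicate 3 was the highest array for both Sel1l and Derl2, and without it their differences were -0.78 and -0.74. The probe set of Sel1l is of a class that can match transcripts of more than 1 gene. The same limit holds for those of Hspa5, Canx, Sec62, Derl1, Ssr4, Sec16a and Srp14.

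Derl1 was also apart, at 13.60, 13.56 and 13.84 in controls and 12.88, 13.35 and 13.06 in Mef2c-deficient arrays. Edem3, a mannosidase-like protein that marks glycoproteins for disposal, differed by -0.86 (limma adjusted p = 0.219). Its relative Edem2 had the opposite sign, at 7.68, 7.50 and 8.86 against 7.61, 8.24 and 10.03, with overlap. Derl3, the derlin known from plasma cells, overlapped as well and differed by 0.23. Of 10 plasma cell markers 9 were measured, Derl3 among them, and 8 were bright enough to be tested. Summed levels of the 9 were 18.44 to 18.81 in controls and 17.60 to 18.40 in Mef2c-deficient arrays. The tested ones were split, with 4 means lower and 4 higher and a median difference of 0.023. The lower ones moved further. Sdc1, Slamf7 and Irf4 differed by -2.36, -2.15 and -1.32, without overlap (37.5% of the list, against 27.1% of all genes). These 3 had a limma unadjusted p under 0.05 (37.5%, against 20.9% of all genes). No higher one did, and the largest higher difference was 0.47.

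Of the stress sensors, Atf6 had lower and Ern1 higher values in every Mef2c-deficient array than in any control. Atf6, a transcription factor held in the ER membrane and freed by cleavage in the Golgi, read 12.83, 12.31 and 12.17 in controls and 11.69, 11.61 and 11.20 in Mef2c-deficient arrays (difference -0.94, SE 0.31, limma adjusted p = 0.139, and -0.40 with cyclic loess). Its paralog Atf6b overlapped and differed by 0.21. Ern1, which encodes the kinase and RNase IRE1 alpha that splices Xbp1, was below the filter, at 6.38, 6.88 and 6.37 against 7.87, 6.94 and 8.16. Fitted without the filter it differed by 1.11 (SE 0.38, limma adjusted p = 0.159).

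The other members under the filter were Spcs1 and Sec16b. Spcs1, a small signal peptidase subunit, read 7.53, 7.61 and 8.44 in controls and 4.42, 7.41 and 8.05 in Mef2c-deficient arrays. Sec16b, a partner of Sec16a at exit sites, read between 2.93 and 4.43 on all arrays.

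**Figure D5:**
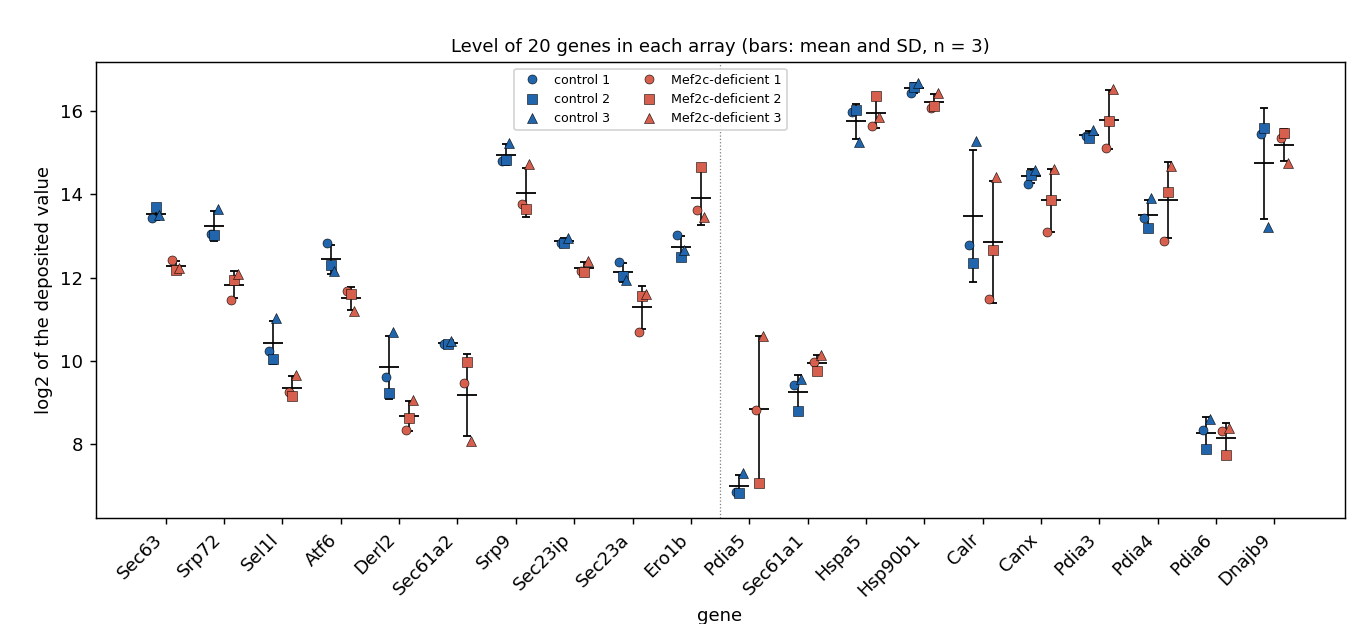
Log2 levels of 20 members on each of the 6 arrays, with bars for each group's mean and SD (n = 3), control and Mef2c-deficient side by side, and with the members at an unadjusted p under 0.05 left of the dotted line. Sec63, Srp72 and Atf6 show lower values in every Mef2c-deficient array than in any control and Ero1b higher ones, while Hspa5, Calr, Pdia3 and Dnajb9 overlap.

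Genes of the same pathway outside the module were also near the background. Of 88 listed, 68 were tested, and 46 had lower (67.6%, against 62.3% of all genes) and 22 higher means in Mef2c-deficient arrays, with a median difference of -0.34 against -0.36. None passed limma's adjusted test. Before adjustment 9 (13.2%, against 20.9% of all genes) had lower and 3 (4.41%, against 5.32%) higher values at p under 0.05.

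The genes with the smallest p in each list are given with limma's difference. In ER-associated degradation, where 9 of 10 means were lower, the ubiquitin-conjugating enzymes of the ER membrane Ube2j1 and Ube2j2 differed by -1.29 and -0.85. In glycoprotein folding and sorting, Lman1 and Mcfd2, which together form a cargo receptor for export from the ER, differed by -1.22 and -1.20, and Stt3a, a catalytic subunit of oligosaccharyltransferase, by 1.44. All 5, picked for small p, had groups that did not overlap, with limma adjusted p of 0.100 to 0.135. Over the 68 tested genes of these lists, groups did not overlap for 18 lower (26.5%, against 27.1% of all genes). They did not overlap for 5 higher (7.35%, against 10.6%).

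In docking and membrane insertion all 6 tested genes had lower means, with Emc1, of the ER membrane protein complex, at -1.07 and Get4, of the tail-anchored protein pathway, at -0.93. Among COPII and COPI partners Arcn1, a COPI coat subunit, differed by -1.07, and Tmed2, a p24 cargo receptor, by 0.82. Erp44, which retains unfinished proteins through their thiols, differed by -1.06. Other genes of the unfolded protein response had higher means in 9 of 14 cases, with Eif2ak3, the sensor kinase PERK, at 0.87 (limma adjusted p = 0.158), Atf4, a transcription factor translated downstream of it, at 0.70, and Sil1, a nucleotide exchange factor of BiP, at 0.93.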

How the data were processed

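Total RNA of sorted pre-B cells was hybridised to 6 arrays. By the study's methods the authors normalized them by RMA, and the intensity values they deposited are on a linear scale whose base is not given in the sources used here. Log2 was taken with no offset. Of 23913 probe sets, 17689 had 1 annotated symbol, 524 several and 5699 none listed, and 1 array control with a symbol was left out. Probe sets whose mean exceeded a floor of 7.26, their own 40th percentile, were kept, 1 a gene by highest mean, leaving 11271 genes. The test was limma 3.58.1 under R 4.3.3 (group means, eBayes, two-sided, Benjamini-Hochberg over all genes). The number of arrays limits the precision.

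Members and lists were chosen with earlier results of these data known. Full statistics were given for the 12 members with the smallest unadjusted p and for a set list of chaperones, isomerases, Sec61 genes and sensors, and up to 3 genes by p in other lists. The main fit did not pair arrays. The replicate number entered only as a block in an alternative fit, since same-numbered arrays deviated together (r of 0.348, 0.226 and 0.373). What a number marks is not given in the labels. With the block the SE went from 0.94 to 0.39 for Calr and from 0.26 to 0.31 for Sec63. Alternatives changed the filter, offset, scaling, probe set choice, test, weights, block and arrays. The code was tested on simulated data. Sequences are from RefSeq (GRCm38.p6), and all 51 member symbols matched.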

Additional observations from a re-analysis of the deposited data

How the results depend on the processing

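All differences rest on 3 arrays a group, on the authors' scaling and on the filter used here. With no filter the median difference of all 17372 genes was 0.073, and over the 11271 genes tested it was -0.36. Other scalings moved that median to -0.10 (quantile), -0.041 (cyclic loess), -0.065 (centred on the kept probe sets) and 0.10 (centred on the genes tested, an alternative chosen after seeing the data), and the members' median to -0.15, 0.043, -0.095 and 0.074. The counts of members before adjustment, 9 lower and 1 higher as reported, were then 4 and 3 (all genes 11.1% and 7.23%), 4 and 3 (10.2% and 8.26%), 2 and 4 (10.7% and 14%), and 2 and 4 (6.48% and 20.2%). The higher count was 3 with no filter (all genes 8.32%), where the members' median was -0.51 relative to all genes. It was 2 with trend and robust eBayes (all genes 5.79%), 3 with array weights (8.92%) and 3 with the replicate block (6.72%). Array weights were the one alternative in which members passed limma's adjusted test: 2 lower, Sec63 (adjusted p = 0.0319, range over alternatives 0.0319 to 0.340) and Srp72 (adjusted p = 0.0321). The block changed no other call at the adjusted threshold. The methods' t-test gave 7 lower and 1 higher unadjusted (all genes 16.9% and 5.69%) and 0 after Benjamini-Hochberg adjustment.

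With 1 array left out at a time the counts ran from 3 to 15 lower (all genes 12.4% to 23.7%) and 0 to 2 higher (2.12% to 7.07%). Without both arrays numbered 3, also chosen after seeing the data, they were 11 and 1 (all genes 18.7% and 5.61%). Signs turned for Hsp90b1 (0.026 with cyclic loess, 0.13 centred on the genes tested), Pdia6 (0.16 centred on the kept probe sets, 0.33 on the genes tested, where centring adds the same amount to every gene) and Dnajb9 (-0.012 with array weights, -0.11 without both arrays numbered 3). With 1 array left out, differences ran from -0.045 to 0.35 for Hspa5, -1.40 to 0.28 for Calr, -0.0011 to 0.70 for Pdia3, -0.037 to 0.86 for Pdia4, -0.33 to 0.073 for Pdia6 and -0.32 to 0.86 for Dnajb9. The cause of these changes was not tested. Of 20 alternatives, an unadjusted p under 0.05 was met in 20 for Sec63 and Srp72, 19 for Ero1b, 15 for Atf6, 13 for Derl2, 11 for Sec61a2, 10 for Srp9, 9 for Sec23a and 8 for Sec23ip, and for Sel1l in 15 of 19. These genes were picked for small p in the same arrays, and several alternatives could hardly move them. Averaging probe sets left the Sec63 difference at -1.26, since only Pdia4 among the members had another probe set. The tally is thus no measure of robustness.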

Other observations

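Genes chosen after their values were seen differed between arrays of the same group more than between groups. Herpud1, an ER stress gene of the degradation machinery, read 17.53, 17.55 and 15.22 in controls and 17.28, 16.22 and 14.08 in Mef2c-deficient arrays. Ppp1r15a (GADD34), a stress-induced phosphatase subunit, read 14.88, 14.02 and 10.72 against 15.03, 15.64 and 10.55. The array numbered 3 was the lowest of its group for both genes and for Dnajb9. Xbp1, the transcription factor spliced by IRE1 alpha, had its highest value in Mef2c-deficient replicate 3, at 13.04, 12.42 and 13.30 in controls and 12.49, 13.45 and 15.16 in Mef2c-deficient arrays. These patterns were not tested.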
